A study of Mus musculus with 24 samples.

Results

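The genes of muscle glycolysis and glycogen metabolism described here were taken by symbol from the deposited matrix of log2 CPM (read counts scaled to library size, on a log2 scale), and all 10 were among its 14159 genes with a symbol. Pfkm, Pgam2, Eno3, Aldoa, Pygm, Gys1 and Slc2a4 form the 7 muscle-type members, named for the isoform or paralog that prevails in skeletal muscle. Hk2, Pkm and Ldha form the 3 contrast members. Their expression was measured in whole quadriceps muscle of young adult female mice, 6 to 8 weeks old before surgery, of the strains C57BL/6 (B6) and MRL/MpJ (MRL), the latter known for closing ear wounds. In both strains a piece of the quadriceps was cut out, an injury called volumetric muscle loss, and the gap received saline, powdered decellularized pig small intestinal submucosa (ECM) or polyethylene powder (PE). Injured muscles were collected on day 21, and uninjured muscles of both strains, with no implant and no day given, were the reference. With 3 libraries in each of the 8 groups there were 24 in all. The labels give no transgene or deleted gene in any group, and the whole muscle was taken, so an injured library holds the wound, any implant and the intact tissue together. The labels number the libraries and do not say that each is a separate mouse, so p-values measure the spread between these libraries.

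Glycolysis breaks glucose down to pyruvate, and a muscle fibre feeds it from blood glucose and from its own glycogen store. Fast fibres, which make up most of the mouse quadriceps, rely on it for short bursts of work. Several steps are run by a muscle isoform in fibres and by a related gene in other tissues. Immune cells and fibroblasts express the general isoforms, and Pkm and Ldha are made in many cell types.

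Fibre markers were abundant, as the muscle label has it. All 15 genes of a fibre list (actin, creatine kinase, fast myosins, troponins, titin and others, with no glycolysis gene) were measured above 0 in every library. Their summed level ranged from 37358 to 238923 CPM. Macrophage markers (7 measured, none at 0 in any library) summed to 80.7 to 172 CPM in the 6 uninjured libraries, to 1431, 2790 and 5162 CPM in B6 PE, and to 222, 229 and 4539 CPM in MRL PE. Replicate 2 of PE stood apart in both strains, with the 2 lowest fibre sums (59920 CPM in B6, 37358 CPM in MRL) and high macrophage sums. Fibroblast markers (5 genes) summed to 1026 to 1753 CPM in the uninjured libraries, to 5425 to 9341 CPM in B6 PE, and to 16368 CPM in MRL PE replicate 2 against 1863 and 2482 CPM in the other MRL PE libraries. Adipocyte markers (5 genes) summed to 633 to 2943 CPM in uninjured B6 muscle and 133 to 272 CPM in B6 PE. In MRL they summed to 203, 1823 and 504 CPM without injury. In MRL PE they summed to 3850 and 2529 CPM in replicates 1 and 3, with 332 CPM in replicate 2. The part of these cells in the results below was not tested. In whole tissue, fewer fibres and less RNA per fibre cannot be told apart.

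The 10 genes span the route from glucose entry to lactate. Slc2a4 (chr11:69831006-69839070, minus strand, GRCm39) encodes GLUT4, the glucose transporter that insulin and contraction bring to the fibre surface. Hk2 (chr6:82699740-82751469, minus strand) encodes hexokinase 2, which phosphorylates the glucose that has entered. Gys1 (chr7:45084175-45106058, plus strand) encodes muscle glycogen synthase, and Pygm (chr19:6430569-6448538, plus strand) the muscle phosphorylase that releases glucose units from glycogen. Pfkm (chr15:97990451-98031417, plus strand) encodes the muscle subunit of phosphofructokinase, the committed step of glycolysis. Aldoa (chr7:126393822-126399923, minus strand) encodes aldolase A, which splits the sugar. Pgam2 (chr11:5751636-5753760, minus strand) and Eno3 (chr11:70546593-70553340, plus strand) encode muscle phosphoglycerate mutase and beta-enolase, the steps before pyruvate kinase. Pkm (chr9:59563364-59586663, plus strand) encodes pyruvate kinase M, whose splice forms were not separated in gene-level values. Ldha (chr7:46490899-46505061, plus strand) encodes the lactate dehydrogenase subunit that favours lactate formation.

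Per kilobase of the canonical transcript the members differed widely in level. Aldoa had the highest mean over the 24 libraries, 8560 CPM per kb. Eno3 (2839), Pygm (2654), Ldha (1854), Pkm (1788) and Pgam2 (1540 CPM per kb) followed. The remaining members were lower, at 390 for Pfkm, 148 for Slc2a4, 121 for Gys1 and 41.2 CPM per kb for Hk2. The genes of glucose entry, phosphorylation and glycogen synthesis thus lay at the low end of this scale, with Pfkm next above them. Pygm, of glycogen breakdown, lay at the high end with the genes from aldolase to lactate dehydrogenase. Together the 10 genes took 3.59 to 5.34% of the effective library in uninjured muscle, 1.47, 2.62 and 3.09% in B6 PE, and 0.995, 3.11 and 3.41% in MRL PE.

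The sequences just upstream of 4 members are shown as examples of the motifs searched, 2 muscle-type members with a myogenic E-box and the 2 contrast members with the most matches to the hypoxia core. A table of RefSeq promoters (GRCm38.p6, 250 bases before each annotated start) held 16 windows for 9 members, and Slc2a4 had none there. Capitals mark CAGCTG, an E-box form bound by myogenic factors, and ACGTG or its reverse complement CACGT, the core of the hypoxia response element. The windows, written 5′ to 3′ on the gene's strand, are from chr11:5803797-5804046 (minus strand, Pgam2), chr19:6384158-6384407 (plus strand, Pygm), chr6:82774455-82774704 (minus strand, Hk2) and chr7:46845554-46845803 (plus strand, Ldha).
Pgam2: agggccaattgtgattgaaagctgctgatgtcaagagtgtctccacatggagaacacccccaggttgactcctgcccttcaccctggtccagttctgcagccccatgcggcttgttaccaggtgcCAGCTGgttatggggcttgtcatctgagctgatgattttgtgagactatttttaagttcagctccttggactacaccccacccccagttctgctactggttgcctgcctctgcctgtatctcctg
Pygm: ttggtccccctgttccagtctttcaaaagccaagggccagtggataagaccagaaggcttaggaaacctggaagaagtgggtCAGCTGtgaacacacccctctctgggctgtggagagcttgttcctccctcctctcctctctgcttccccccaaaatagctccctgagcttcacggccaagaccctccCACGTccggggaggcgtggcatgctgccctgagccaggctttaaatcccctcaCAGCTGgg
Hk2: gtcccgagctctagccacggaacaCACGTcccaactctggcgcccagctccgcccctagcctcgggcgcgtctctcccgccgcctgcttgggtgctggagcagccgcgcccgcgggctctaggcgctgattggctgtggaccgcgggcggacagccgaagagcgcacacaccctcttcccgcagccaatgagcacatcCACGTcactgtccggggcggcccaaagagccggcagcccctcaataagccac
Ldha: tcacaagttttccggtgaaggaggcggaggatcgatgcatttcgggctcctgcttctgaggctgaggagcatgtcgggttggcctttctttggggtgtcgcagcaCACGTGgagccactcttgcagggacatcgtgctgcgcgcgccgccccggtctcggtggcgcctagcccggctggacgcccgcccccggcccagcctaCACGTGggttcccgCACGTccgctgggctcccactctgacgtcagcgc
CAGCTG was found once in the Pgam2 window and at 2 positions in the Pygm window. The Hk2 window had ACGTG at 2 positions. The Ldha window had 5 matches on either strand, of which 4 came from 2 copies of the palindrome CACGTG, where both strands match. Of 9 member genes, 4 (Gys1, Pgam2, Pkm and Pygm) had CAGCTG in at least 1 window, against 14.7% of all 27025 genes in the table. ACGTG was present for 6 of 9 (Aldoa, Hk2, Ldha, Pfkm, Pkm and Pygm), against 18.5%. A loose form of the MEF2 site, CTA and TAG with 4 free bases between, was found for 0 of 9, against 3.70%. Some members had more than 1 window, and a gene counted if any of its windows matched. By window, CAGCTG was in 4 of 16 member windows, against 13.0% of all 32851 windows. ACGTG was in 8 of 16, against 16.6%. The motifs were chosen after the expression values had been seen. Both strands were searched, a match is a description of these letters, and binding was not measured.

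Across the 8 groups, the PE groups had the 2 lowest mean levels for all 10 members in the deposited scaling. The means of the other 6 groups spanned 0.39 log2 units for Pfkm, the narrowest, and 0.92 for Slc2a4, the widest, and limma called no member in any comparison run between them. The lowest of the 24 values was MRL PE replicate 2 for all 10 genes, and the SD between replicates was largest in MRL PE for all 10. From the lowest to the highest library the level spanned 1.91 log2 units for Pkm and 2.77 for Slc2a4, the narrowest and the widest of the set.

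**Figure D1:**
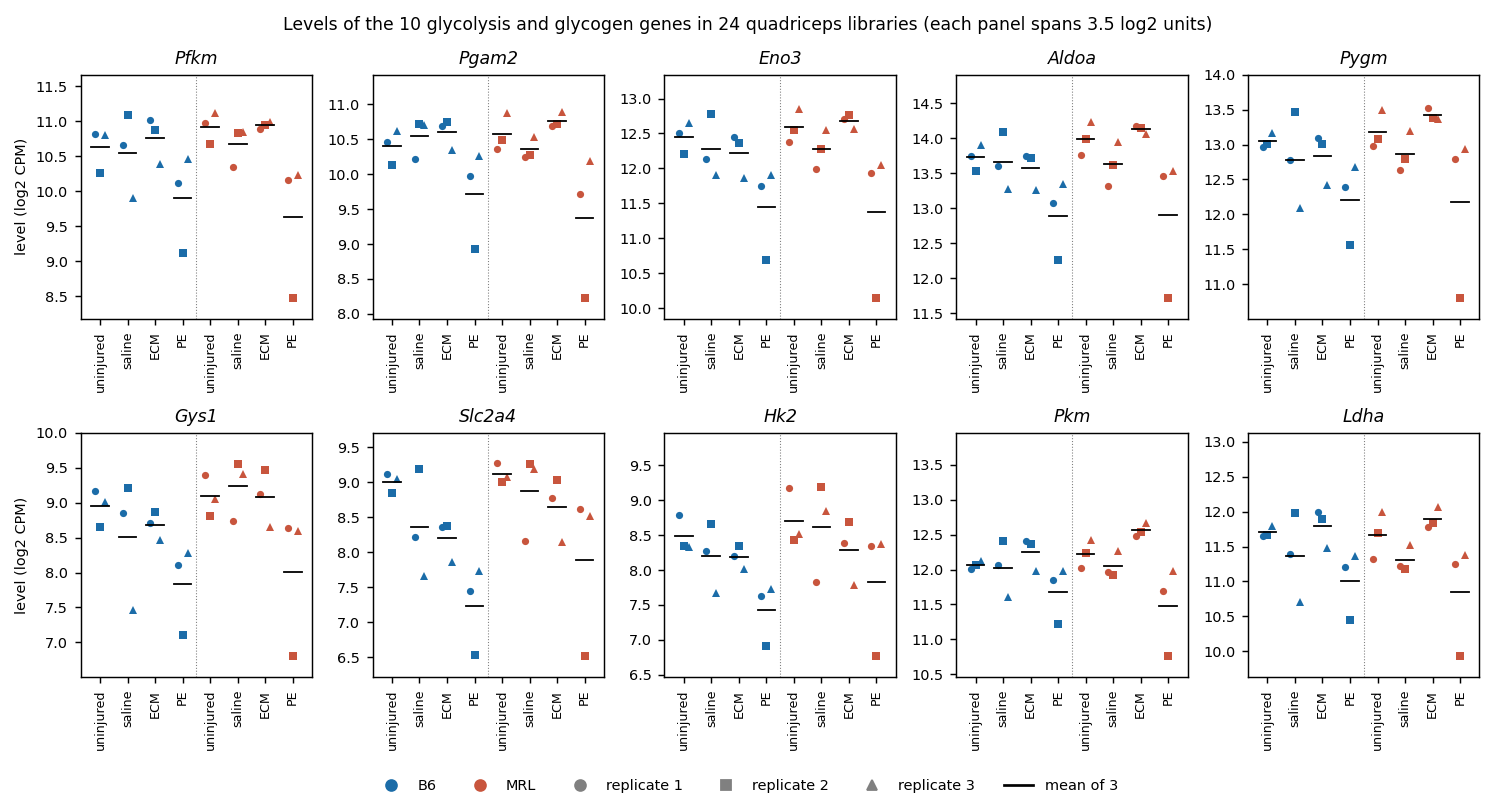
Level of each member (log2 CPM, y axis, every panel spanning the same number of log2 units) in each library, by treatment and strain (x axis), with a bar at the mean of 3 replicates. The means of the PE groups are the 2 lowest in every panel, and replicate 2 of MRL PE is the lowest point of all 10 panels.

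In B6 muscle, the comparison of PE with uninjured tissue asked how these genes stand in a muscle that has held a synthetic implant until day 21. Slc2a4 was the only member to pass the test. Its level was 9.12, 8.84 and 9.05 log2 CPM in uninjured B6 muscle and 7.44, 6.53 and 7.74 log2 CPM in B6 PE. All 3 PE libraries lay below all 3 uninjured ones. The log2 fold change was -1.77 (SE 0.477, 3 libraries against 3), with an adjusted p of 0.0156 in limma. It was 1 of 10 members called, beside 24.8% of all 14159 genes called in either direction. Without B6 PE replicate 2 the log2 fold change of Slc2a4 was -1.42 and the adjusted p was 0.104, and the call held without any other 1 of the 6 libraries.

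The next members were Gys1 and Hk2. Gys1, which builds glycogen, was at 9.17, 8.65 and 9.01 log2 CPM in uninjured B6 muscle and at 8.11, 7.11 and 8.28 log2 CPM in B6 PE, a log2 fold change of -1.11 (SE 0.462, adjusted p = 0.0802). Its groups did not overlap, yet the difference did not pass the threshold. Eno3 went from 12.51, 12.21 and 12.64 log2 CPM to 11.75, 10.69 and 11.91 log2 CPM, a log2 fold change of -1.003 (SE 0.449, adjusted p = 0.102). The log2 fold changes of Pygm, Aldoa, Pfkm and Pgam2 were -0.83, -0.84, -0.73 and -0.69, with adjusted p-values of 0.183 to 0.221, and under quantile normalization that of Aldoa was 0.031. Pygm lay at 12.97, 13.00 and 13.16 log2 CPM in uninjured B6 muscle and at 12.40, 11.56 and 12.68 log2 CPM in B6 PE. The 3 PE libraries of Pygm were again the lower ones. Pfkm and Pgam2 were the members whose groups overlapped, because uninjured replicate 2 (10.26 and 10.14 log2 CPM) fell below PE replicate 3 (10.46 and 10.26 log2 CPM). For 8 of 10 members PE was lower with no overlap, beside 24.1% of all genes. The median log2 fold change of the 10 members was -0.84, against 0.02 over all genes. Without B6 PE replicate 2 the median was -0.52, and the differences of Pfkm, Pgam2 and Pkm were -0.34, -0.29 and -0.15.

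In MRL muscle the same comparison gave differences of similar size and no call in limma. Of the 10 members, 9 had an unadjusted p under 0.05, beside 36.1% of all genes, and 3.78% of all genes were called lower. Pfkm was at 10.98, 10.68 and 11.12 log2 CPM in uninjured MRL muscle and at 10.16, 8.47 and 10.24 log2 CPM in MRL PE. The difference, -1.30 (SE 0.419), had an adjusted p of 0.0522. Pgam2 was at 10.36, 10.48 and 10.87 log2 CPM and at 9.72, 8.23 and 10.20 log2 CPM, with a log2 fold change of -1.19 (SE 0.385, adjusted p = 0.0525). In both genes all PE libraries lay below the uninjured ones, replicate 2 by the most. For Slc2a4, which passed in B6, the MRL levels were 9.28, 9.01 and 9.08 log2 CPM without injury and 8.62, 6.51 and 8.52 log2 CPM with PE (log2 fold change -1.24, SE 0.477, adjusted p = 0.0797). Eno3, Aldoa, Gys1 and Pygm had log2 fold changes of -1.21, -1.09, -1.08 and -1.01. All members but Ldha, 9 of 10, were lower without overlap, beside 20.0% of all genes.

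The size of these MRL differences depended on 1 library. The median log2 fold change of the 10 members was -1.08 (0.07 over all genes) with all libraries and -0.48 without MRL PE replicate 2. Leaving out MRL PE replicate 1 or replicate 3 instead gave 4 and 5 called members. The share of all genes called in those fits is not given here, so the shares above are no measure for these counts. Without replicate 2 no member was called. The macrophage sum of that library was 4539 CPM, against 222 and 229 CPM in the other MRL PE libraries, and the part of these cells in the result was not tested.

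Against the other injured groups, PE also had the lower means for all 10 members. The median log2 fold change from saline was -0.72 in B6 and -0.84 in MRL, and from ECM -0.78 in B6 and -1.16 in MRL, whereas the median over all genes was 0.02, 0.05, 0.01 and 0.08. Without B6 PE replicate 2 the B6 medians were -0.37 from saline and -0.48 from ECM. These comparisons share the PE libraries with those against uninjured muscle. Limma called no member in any of the 4, where 0.600, 0, 0.0283 and 0% of all genes were called lower. Members with an unadjusted p under 0.05 numbered 2, 3, 1 and 8, beside 25.2, 23.3, 20.6 and 28.4% of all genes. In B6 the PE and saline libraries overlapped for every member, beside 11.1% of all genes lower without overlap, and B6 saline replicate 3 was itself low, at 7.66 log2 CPM for Slc2a4 and 7.46 log2 CPM for Gys1. B6 PE lay below B6 ECM without overlap for Pgam2, Gys1, Slc2a4, Hk2, Pkm and Ldha, 6 of 10 members, beside 14.6% of all genes. MRL PE lay below MRL ECM without overlap for 8 members, all but Slc2a4 and Hk2, beside 15.0% of all genes, and below MRL saline for Pfkm, Pgam2 and Gys1, beside 9.48%.

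The widest of these gaps were between MRL PE and MRL ECM. Pgam2 was at 10.70, 10.72 and 10.89 log2 CPM in MRL ECM, above the 9.72, 8.23 and 10.20 log2 CPM of MRL PE (log2 fold change -1.39, SE 0.385, adjusted p = 0.0613). Pkm was at 12.47, 12.54 and 12.67 log2 CPM in MRL ECM and at 11.69, 10.76 and 11.98 log2 CPM in MRL PE, a difference of -1.09 (SE 0.337, adjusted p = 0.0695). Neither passed. Without MRL PE replicate 2 the median over the 10 members was -0.61 in this comparison and -0.27 in that with saline. Without MRL PE replicate 3, 5 members were called in the comparison with ECM. The share of all genes called in that fit is not given here, and the share above is from all libraries.

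**Figure D2:**
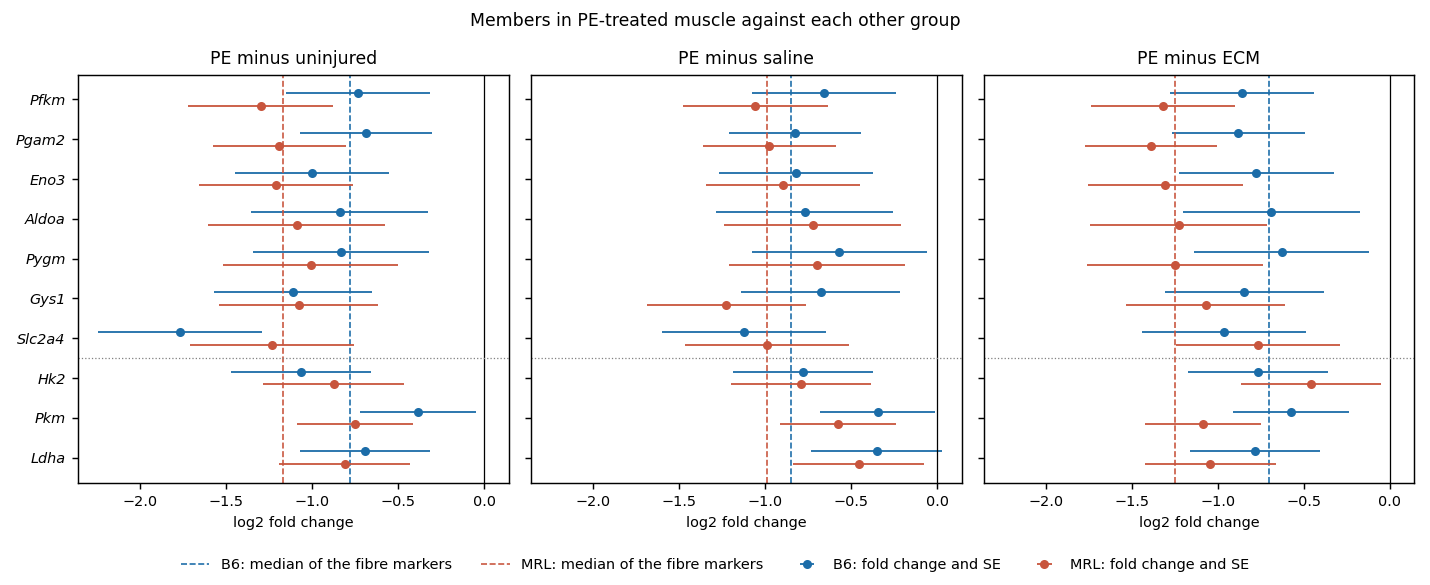
Log2 fold change of each member in PE against uninjured, saline and ECM muscle (3 panels, x axis in log2 units), with bars of 1 SE, for B6 and MRL; dashed lines give the median of the 15 fibre markers. Every point lies below 0, most lie near the dashed line of their strain, and the largest is Slc2a4 in B6 PE against uninjured muscle.

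The contrast members Hk2, Pkm and Ldha also had lower means in PE and were not called. Hk2 had the largest difference of the 3 from uninjured muscle in both strains. Its level was 8.78, 8.35 and 8.33 log2 CPM in uninjured B6 muscle and 7.63, 6.91 and 7.72 log2 CPM in B6 PE, a log2 fold change of -1.07 (SE 0.408, adjusted p = 0.0614) with no overlap. In MRL the change was -0.88 (SE 0.408, adjusted p = 0.130), from 9.17, 8.43 and 8.52 to 8.35, 6.77 and 8.38 log2 CPM. Against MRL ECM it was -0.46 with all libraries and 0.074 without MRL PE replicate 2.

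Pkm had the smallest difference from uninjured muscle in both strains. Its levels were 12.002, 12.07 and 12.12 log2 CPM in uninjured B6 muscle and 11.84, 11.22 and 11.98 log2 CPM in B6 PE. The log2 fold change, -0.38 (SE 0.337, adjusted p = 0.396), was 0.029 with equal library totals and 0.36 after quantile normalization, so its sign depended on the scaling. In MRL PE, Pkm was at 11.69, 10.76 and 11.98 log2 CPM, against 12.02, 12.24 and 12.43 log2 CPM without injury (log2 fold change -0.75, SE 0.337, adjusted p = 0.116). Ldha differed by more than Pkm in both strains. It was at 11.64, 11.67 and 11.79 log2 CPM in uninjured B6 muscle and at 11.21, 10.45 and 11.37 log2 CPM in B6 PE, a log2 fold change of -0.69 (SE 0.380, adjusted p = 0.173), and the change in MRL was -0.81 (SE 0.380, adjusted p = 0.131).

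Set against each other within a library, the muscle-type and the contrast members shifted by less than either set did. The mean log2 CPM of the 7 muscle-type members minus that of Hk2, Pkm and Ldha was 0.45, 0.25 and 0.57 in uninjured B6 muscle and 0.18, -0.07 and 0.31 in B6 PE. It was 0.47, 0.44 and 0.55 in uninjured MRL muscle and 0.33, -0.20 and 0.29 in MRL PE. The MRL groups did not overlap and the B6 groups did. The difference between group means was -0.28 in B6 and -0.35 in MRL, and -0.18 in each strain without its replicate 2 of PE. Saline libraries kept to 0.35 to 0.50 in both strains. In ECM the strains parted on this measure, with 0.28, 0.27 and 0.17 in B6 and 0.53, 0.47 and 0.40 in MRL. These are descriptions of chosen genes and carry no test.

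Pairs of single genes showed the same spread of behaviour. Pkm relative to Eno3 had a mean log2 difference of -0.39 ± 0.22 (SD, n = 3) in uninjured B6 muscle and 0.23 ± 0.25 in B6 PE, and its highest values were those of replicate 2 of PE, 0.52 in B6 and 0.62 in MRL. Ldha relative to Pfkm was 1.07 ± 0.30 in uninjured B6 muscle and 1.11 ± 0.22 in B6 PE, and 0.74 ± 0.35 and 1.23 ± 0.20 in MRL. Slc2a4 relative to Pygm had a small spread in B6. It was -4.04 ± 0.17 in uninjured B6 muscle, -4.42 ± 0.14 with saline, -4.64 ± 0.08 with ECM and -4.97 ± 0.05 with PE. The 3 uninjured libraries lay above all 9 injured B6 libraries, and the 3 PE libraries below all others of the strain. In MRL the order was not the same, with means of -4.06, -3.999, -4.77 and -4.29 and SDs of 0.12 to 0.47. All these pairs were picked after their values were seen.

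The members varied together over the 24 libraries, and all points share the same libraries. Pearson's r between 2 members ran from 0.63 (Hk2 with Ldha and with Pkm) to 0.99 (Aldoa with Eno3). Over the 22 libraries without replicate 2 of PE it ran from 0.091 (Hk2 with Pgam2) to 0.97 (Aldoa with Eno3), so the looser of these relations leaned on those libraries. The genes most like the mean of the 7 muscle-type members were Rpl3l, a ribosomal protein of striated muscle (r = 0.986), Eef1a2, a muscle and neuron elongation factor (r = 0.982), Smyd1, a muscle methyltransferase (r = 0.979), Ttn and Pdk2. The 3 contrast members had different nearest genes. For Hk2 they were Atp5a1 (r = 0.970), Uqcrc2 (r = 0.967), Ndufaf1, Uqcrc1 and Samm50, all of mitochondria. For Pkm they were Pgk1 (r = 0.964), Ak1, Myoz1, Mllt11 and Egln2. Pgk1, the glycolytic phosphoglycerate kinase, also led for Ldha (r = 0.979), before Tmcc2 and Jph2. Slc2a4, looked up after its values were seen, was most like Chchd3 (r = 0.983), Uqcrc2 (r = 0.983) and Atp5a1 (r = 0.980), also mitochondrial. Libraries differ together in strain, treatment and fibre content, so these values describe likeness only.

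The fibre markers moved with the members. Across the 24 libraries the mean of the 15 fibre markers had an r of 0.76 with Ldha, the lowest, and 0.94 with Eno3, the highest. Without replicate 2 of PE these were 0.35 and 0.80, again the lowest and the highest of the 10. The median log2 fold change of the fibre markers from uninjured to PE was -0.78 in B6 and -1.17 in MRL, close to the -0.84 and -1.08 of the members. Limma called 1 of the 15 lower in B6, beside 24.8% of all genes called in either direction. It called 0 in MRL, beside 3.78% of all genes called lower. In MRL, 9 of the 15 had an unadjusted p under 0.05, beside 36.1% of all genes. Relative to the fibre mean of the same library, the 7 muscle-type members stood at -1.79, -1.20 and -1.70 log2 units in uninjured B6 muscle and at -1.56, -1.44 and -1.73 in B6 PE. In MRL they stood at -1.80, -1.503 and -1.67 and at -1.59, -1.75 and -1.42. In both strains PE and uninjured libraries overlapped on this scale. Hk2, Pkm and Ldha stood at -2.24, -1.45 and -2.27 in uninjured B6 muscle and at -1.73, -1.37 and -2.04 in B6 PE, and at -2.27, -1.95 and -2.22 and -1.92, -1.55 and -1.71 in MRL. Only the MRL groups of the contrast members did not overlap, with PE the higher.

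Slc2a4 was again set apart in B6 on the fibre scale. It lay at -3.93, -3.30 and -3.96 log2 units from the fibre mean in uninjured B6 muscle and at -4.52, -4.36 and -4.66 in B6 PE, with no overlap. In MRL it lay at -3.83, -3.72 and -4.12 and at -3.73, -4.19 and -3.76, with overlap. B6 saline (-4.51, -4.02 and -5.18) and B6 ECM (-4.25, -4.60 and -4.25) were also below the uninjured B6 libraries. The macrophage mean had an r of -0.90 with Slc2a4, the farthest from 0 of the members, and of -0.64 with Ldha, the nearest. Without replicate 2 of PE they were -0.80 and -0.24. Of 7 macrophage markers measured, 6 were called higher in B6 PE and 3 in MRL PE against uninjured muscle, beside 14.7 and 5.95% of all genes called higher. Without replicate 2 of PE these counts were 5 in B6 and 0 in MRL. The part of these cells in the Slc2a4 result was not tested.

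**Figure D3:**
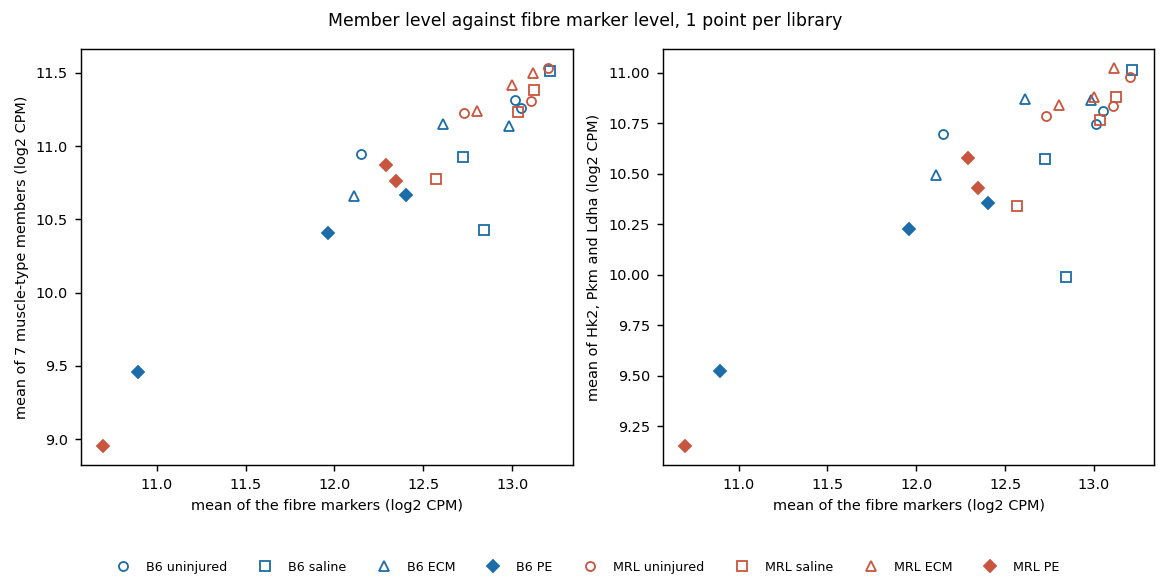
Mean level of the 7 muscle-type members (left) and of Hk2, Pkm and Ldha (right) against the mean of the 15 fibre markers, both in log2 CPM, with 1 point per library and filled symbols for PE. The points follow a rising band in both panels with replicate 2 of PE in each strain at its lower end, and B6 saline replicate 3 lies below the band.

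The other isoforms of each family altered the make-up of some steps. Shares were taken within a family from CPM per kb. Hk2 made up 89.1, 82.6 and 79.7% of hexokinase transcripts in uninjured B6 muscle and 39.4, 16.3 and 49.8% in B6 PE. In MRL it made up 92.1, 85.2 and 89.7% without injury and 78.6, 14.3 and 77.5% with PE, so replicates 1 and 3 of MRL PE lay near the uninjured libraries and replicate 2 near the B6 PE range. In B6 PE and in MRL PE replicate 2 most of the rest was Hk3, the hexokinase of myeloid cells. It was at 0.801, 0.780 and 0.506 CPM per kb in uninjured B6 muscle and at 29.1, 66.8 and 19.0 CPM per kb in B6 PE, and at 2.38, 67.1 and 1.14 CPM per kb in MRL PE.

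Slc2a4 made up 97.9, 96.9 and 98.1% of the 3 glucose transporters compared (with Slc2a1 and Slc2a3) in uninjured B6 muscle and 86.5, 69.2 and 92.3% in B6 PE. In MRL PE the shares were 97.2, 67.8 and 97.3%. Pfkm held 80.7 to 96.0% of phosphofructokinase in B6 PE and 85.7, 69.3 and 87.0% in MRL PE, against 85.3 to 98.1% in the 6 uninjured libraries. Pgam2 held 94.5, 70.4 and 95.7% of phosphoglycerate mutase in MRL PE and 81.8 to 97.0% in B6 PE. Aldoa held 98.4% or more of aldolase, and Ldha 97.1% or more of lactate dehydrogenase, in every library. Pygm (94.8% or more) and Gys1 (95.6% or more) likewise carried nearly all transcripts of their families in every library.

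**Figure D4:**
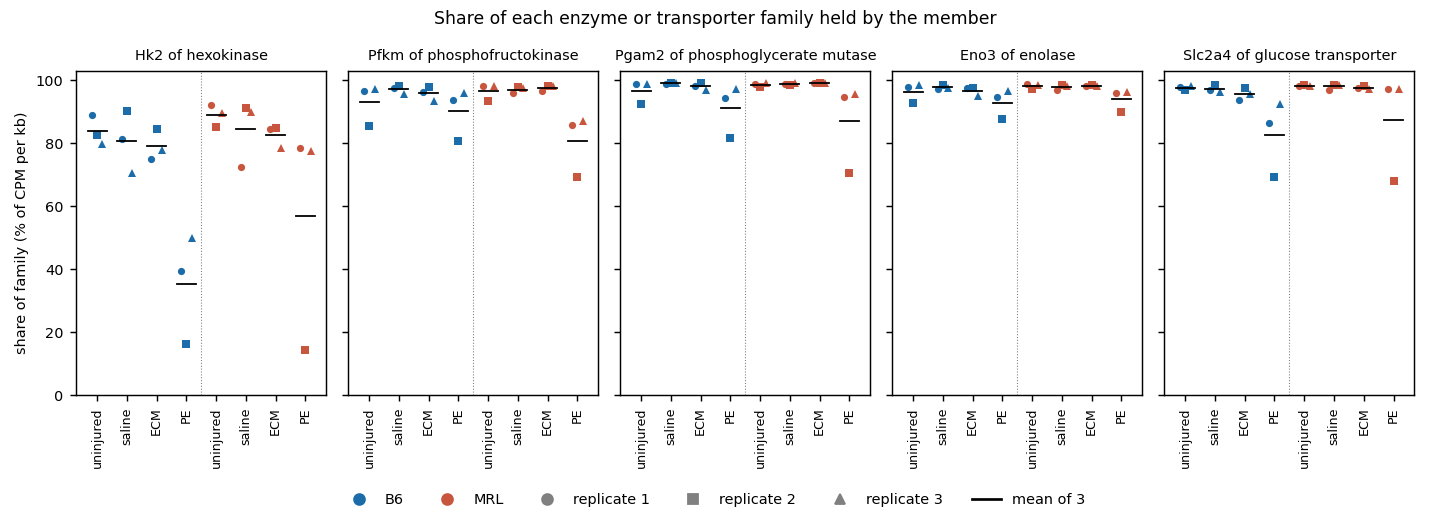
Share of a family's transcripts held by the member (percent of the summed CPM per kb, y axis from 0) in each library for 5 families, by treatment and strain (x axis), with a bar at the mean of 3. Hk2 is at 49.8% or less in all 3 B6 PE libraries and at 14.3% in MRL PE replicate 2, and no other member is under 67.8%.

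Beyond the members, 4 further lists of the pathway were examined by count. Against uninjured muscle in B6 PE, pyruvate and lactate fate had 9 of 11 genes called lower and 0 higher, where 1422 of all 14159 genes were called lower and 14.7% higher. Pdk4, a kinase that shuts pyruvate dehydrogenase and rises in fasting, was at 8.01, 9.79 and 11.42 log2 CPM in uninjured B6 muscle and at 6.83, 5.68 and 7.22 log2 CPM in B6 PE (log2 fold change -3.17, SE 0.691, adjusted p = 0.0060). Its uninjured libraries were widely spread and still lay above all PE libraries. Slc16a1, the lactate transporter MCT1, was at 6.03, 6.85 and 5.92 log2 CPM and at 4.40, 4.30 and 4.65 log2 CPM (log2 fold change -1.82, SE 0.425, adjusted p = 0.0084). Mpc1, Mpc2, Pdha1, Pdhb, Dlat, Pdk1 and Pdk2, the carrier and dehydrogenase genes that bring pyruvate into the mitochondrion and oxidize it or regulate that step, were the others, named after their values were seen. Their log2 fold changes ran from -1.53 for Pdha1 to -1.10 for Pdk1. Without B6 PE replicate 2 the list had 0 calls.

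In the same comparison, glycogen handling had 4 of 19 genes called lower and 0 higher. They were Gyg, the glycogenin that primes the chain (log2 fold change -1.01), Gbe1, the branching enzyme (-1.49), Ugp2, which makes the sugar donor (-1.41), and Ppp1r3c, a targeting subunit of the glycogen phosphatase (-1.64). The other glycolysis enzymes had 2 of 13 called lower, Fbp2 (-1.86) and Pfkfb1 (-1.78), both of which act on the fructose phosphates. Isoforms of other tissues had 3 of 16 called higher, a share not far from the 14.7% of all genes. The 2 of 13 and 4 of 19 called lower stand beside 1422 of all 14159 genes called lower. Hk3 was higher (log2 fold change 5.56, SE 0.930, adjusted p = 0.0018), as were Eno2, the neuronal enolase (2.63), and Slc2a1, which encodes the general glucose transporter GLUT1 (1.69). Hk3 stayed called when any 1 of the 6 libraries was left out. Of these 6 fits, Eno2 stayed called in 2, Slc2a1 in 3, Fbp2 in 2, Ugp2 in 3 and Gbe1 in 5. Without B6 PE replicate 2 the glycogen list and the other glycolysis list had 0 calls and the isoforms had 1.

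The MRL lists had fewer calls, all with adjusted p-values of 0.0448 to 0.0483. Isoforms of other tissues had 3 of 16 higher, beside 5.95% of all genes: Hk3 (log2 fold change 3.18), Pfkp, the platelet phosphofructokinase (1.94), and Pgam1, the general phosphoglycerate mutase (1.80). Glycogen handling had 3 of 19 lower, which were Ppp1r3a, the muscle glycogen phosphatase subunit (-1.46), Epm2a, the glycogen phosphatase laforin (-1.29), and Phkg1, the catalytic subunit of muscle phosphorylase kinase (-1.28), beside 3.78% of all genes called lower. Hk1 (1.25) was higher and Pfkfb2 (-0.71) and Pdp1 (-1.19) lower in the remaining lists. Without MRL PE replicate 2 each of the 4 lists had 0 calls, and Hk3 had a log2 fold change of 1.40. The lists also had 0 calls without MRL uninjured replicate 1 or 3, with a replicate block, with quantile normalization, with a constant prior variance and with the compared groups only. Against saline, B6 PE had 4 isoforms called higher, Hk3 (5.28), Pgam1 (2.09), Slc2a1 (1.77) and Pfkp (1.68), beside 5.37% of all genes, and no call in the other 3 lists. The isoform count was 0 without B6 PE replicate 1 or 2 or B6 saline replicate 2, 1 without B6 saline replicate 1 or 3, and 5 without B6 PE replicate 3, and with a replicate block it was 2. No list had a call in MRL PE against saline or in either strain against ECM.

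Without PE, no member differed from uninjured muscle past the threshold. The median log2 fold change over the 10 members was -0.22 in B6 and -0.25 in MRL for saline against uninjured muscle, and -0.18 and 0.11 for ECM against uninjured muscle. Limma called no member in these 4 comparisons, beside 0, 0, 0.424 and 0.0141% of all genes, and none had an unadjusted p under 0.05, beside 12.4, 3.10, 16.8 and 3.80% of all genes. Slc2a4 came nearest in B6 ECM, at 8.36, 8.38 and 7.86 log2 CPM, all below the uninjured libraries (log2 fold change -0.81, SE 0.477, adjusted p = 0.383). With library weights and with the compared groups only, its adjusted p was 0.0295 and 0.0466. In B6 saline the difference of Slc2a4 was -0.65 (SE 0.477, limma adjusted p = 0.570). In B6 ECM, Slc2a4 was the only member lower without overlap, beside 14.6% of all genes, and in B6 saline all 10 members overlapped. In MRL ECM, Pkm was the only member higher without overlap, with a log2 fold change of 0.33, beside 6.19% of all genes.

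ECM and saline differed most in MRL, where 7 members were higher in ECM without overlap, beside 6.80% of all genes. Ldha was at 11.78, 11.84 and 12.06 log2 CPM in MRL ECM and at 11.23, 11.18 and 11.53 log2 CPM in MRL saline (log2 fold change 0.59, SE 0.380, adjusted p = 1.00). Pkm differed by 0.51 (SE 0.337). Pfkm, Pgam2, Eno3, Aldoa and Pygm differed by 0.26 to 0.55. Gys1, Slc2a4 and Hk2 went the other way, by -0.16, -0.22 and -0.33, with overlap. None passed (0.00706% of all genes did), and 0 of 10 had an unadjusted p under 0.05, beside 3.55% of all genes. In B6 the 10 differences ran from -0.16 to 0.43 and all groups overlapped, beside 4.53% of all genes higher and 3.74% lower without overlap and 0.0283% called.

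No strain difference passed the test for any member, beside 2.60, 2.51, 2.66 and 3.35% of all genes called in uninjured, saline, ECM and PE muscle. MRL minus B6 had a median over the members of 0.16 in uninjured muscle, 0.06 with saline, 0.35 with ECM and -0.06 with PE, and the lowest adjusted p of any of them was 0.489. The values with PE rested on MRL PE replicate 2, without which the median was 0.58 and Slc2a4 was called, at 1.34 against 0.65 with all libraries (limma adjusted p = 0.0218). With replicate 2 of PE left out in both strains they were 0.23 and 0.99 (adjusted p = 0.113 for Slc2a4). With ECM all 10 members were higher in MRL, by 0.10 to 0.58, and Eno3, Aldoa, Pygm and Pkm had no overlap, beside 12.9% of all genes, but quantile normalization brought the median to -0.00 and turned Pkm to -0.078. Pygm was at 13.53, 13.38 and 13.36 log2 CPM in MRL ECM and at 13.09, 13.00 and 12.42 log2 CPM in B6 ECM. The fibre markers were higher in the same comparison by a median of 0.43, and their part in the result was not tested. The difference between strains in the effect of PE was tested as an interaction. For Slc2a4 it was 0.53 (SE 0.675, 95% interval -0.88 to 1.94, adjusted p = 0.839), an interval wide enough to hold sizeable differences in either direction. Without MRL PE replicate 2 it was 1.22 (limma adjusted p = 0.174), without MRL PE replicate 1 it was 0.17, and with library weights 1.02 (adjusted p = 0.0178). Limma called no interaction for any member (0.0212% of all genes for PE against uninjured muscle, 0.00706% for ECM against uninjured muscle), the lowest adjusted p was 0.792, and 0 of 10 had an unadjusted p under 0.05 for PE against uninjured muscle, beside 11.7% of all genes. Outside the members, Pdk4 was lower in uninjured MRL than in uninjured B6 muscle (log2 fold change -2.61, SE 0.691, adjusted p = 0.0482), beside 1.25% of all genes called lower. Leaving out any 1 of the 6 libraries kept that call in 1 case.

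Counts could be shared with near-identical copies for some members. Among transcripts that matched at 90% identity or more, only Ldha and Pgam2 had a partner in the matrix. The Ldha pseudogenes Ldha-ps and Gm11814 reached at most 1.85 log2 CPM in any library, against a mean of 11.4 log2 CPM for Ldha. Pgam2 overlaps a transcript of its neighbour Dbnl, whose mean was 4.63 log2 CPM. Copies outside the matrix were not analysed here.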

How the data were processed

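The 24 libraries were poly(A)-selected bulk RNA of whole quadriceps. The authors pseudoaligned reads with kallisto to Ensembl GRCm39 cDNA, summed transcripts to symbols with tximport, kept genes above 1 CPM in at least 3 libraries, normalized with edgeR's TMM and deposited log2 CPM. Counts per library are not in that matrix. The lowest value gives a mean effective library size of 25149678 reads at the prior count of 2 the authors' log2 CPM used, at which the lowest member value (6.51 log2 CPM) is about 2293 reads, so counting error was small for all members. The matrix held 14160 features, of which 1 had no symbol and was left out.

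Fits used limma 3.58.1 with a mean-variance trend (R 4.3.3), 1 coefficient per group over all 24 libraries, and Benjamini-Hochberg adjustment over 14159 genes per comparison, with a threshold of 0.05. An exact permutation test of 3 against 3 cannot go below 0.10 and was not used. Groups "do not overlap" when every library of one lies beyond every library of the other. CPM per kb uses the canonical transcript's length in GRCm39. Coordinates are from GRCm39, promoter sequences from RefSeq.

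Members and lists were chosen with earlier results of these data known. The plan was to name all members, their paralogs and the 5 genes most alike in pattern. From the 4 pathway lists it allowed up to 3 called genes per direction and comparison. For PE against uninjured muscle, more called genes of these lists were named in both strains, after their values were seen. Others are marked as chosen after their values were seen. Same-numbered libraries deviated together (correlation above 0.1 for all 3 numbers) only between MRL PE and B6 PE (r = 0.10, 0.53 and 0.44), and the labels do not say what a number stands for. The spike-in named in the labels was not analysed here. A gene of the list of isoforms of other tissues is not reported here.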

Additional observations from a re-analysis of the deposited data

How the results depend on the processing

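Alternatives were a log2(CPM + 1) scale, a minimum mean of 1 log2 CPM, equal library totals, quantile normalization, only the compared groups, a constant prior variance, library weights, a replicate block, leaving out each library, and, added after seeing the data, leaving out replicate 2 of PE in both strains. Equal totals moved the median of all genes to 0.43 in B6 and 0.47 in MRL for PE against uninjured muscle. Library weights gave the most different counts of called members: 1 for B6 saline, 1 for B6 ECM, 9 for B6 PE and 1 for MRL PE against uninjured muscle, 9 (B6) and 2 (MRL) for PE against saline, 10 and 4 for PE against ECM, 3 each for the strain difference in saline and in PE, and 1 for the interaction of PE against uninjured muscle. These weights put almost all of B6 PE on replicate 1 (56.3, against 0.057 for MRL PE replicate 2). With the compared groups only, 1 member was called for B6 ECM and 3 for B6 PE against uninjured muscle. The minimum mean gave 2 for MRL PE against uninjured muscle. The share of all genes called is not given here for any alternative or for the fits without single libraries. These counts of called members therefore describe the settings and are no result about the members.

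The median over the members was -0.27 for B6 PE against uninjured muscle and -0.64 for MRL PE against ECM under quantile normalization, and -0.51 for MRL PE against uninjured muscle under library weights. Without replicate 2 of PE it was -0.48, -0.27 and -0.61 for MRL PE against uninjured, saline and ECM. The muscle-type minus contrast difference was -0.19 under library weights, and without replicate 2 of PE -0.18, -0.16 and -0.16 in the same 3 comparisons. Signs turned for Aldoa (0.031, quantile) and Pkm (0.029 with equal totals, 0.36 quantile) in B6 PE against uninjured muscle, for Hk2 in MRL PE against ECM (0.074 without MRL PE replicate 2, also with both replicates 2 left out, and -0.73 to 0.074 over single libraries) and for Pkm between strains in ECM (-0.078, quantile). The cause was not tested.

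Leaving out single libraries gave 0 to 1 called members for B6 PE against uninjured muscle, 0 to 5 for MRL PE against uninjured and against ECM, and 0 to 1 for the strain difference in PE (Slc2a4, without MRL PE replicate 2). The median ranged from -1.40 to -0.48, -1.16 to -0.27 and -1.45 to -0.61 for MRL PE against uninjured, saline and ECM, from -0.41 to 0.58 for the strain difference in PE, and from -0.55 to 0.38, -0.45 to 0.47 and -0.80 to 0.10 for the interactions of PE against uninjured, saline and ECM. Muscle-type minus contrast ranged from -0.44 to -0.18, -0.42 to -0.16 and -0.42 to -0.16 for MRL PE, and from -0.10 to 0.17 between strains in PE.

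The replicate block left the count of called members at 1 for B6 PE and 0 for MRL PE against uninjured muscle and changed no other member count. With the block, the B6 PE calls in the glycogen and pyruvate lists were 3 and 7, and the MRL PE calls in the 4 lists were 0. Depth limits no member, and the 3 libraries a group limit all of them.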
